A study of Mus musculus with 6 samples.

Results

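Grhl3 is a DNA-binding transcription factor of the grainyhead-like family. In the embryo it is required for the epidermis to close and to form its barrier, and among its known targets is Tgm1, the transglutaminase that cross-links the cornified envelope. It has also been studied in the repair of injured adult epidermis. The regions described here are places in the mouse genome where a Grhl3 peak was called in embryonic skin and again in adult epidermis after depilation, but where no peak was called in adult epidermis of the imiquimod experiment. They number 654 of the 13035 regions obtained by merging the peak lists, and 11 further regions that meet the same conditions but have very high depilation scores are described apart.

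The members were chosen from peak calls. Peaks of E16.5 replicate 1 that were overlapped by at least 1 bp of a replicate 2 peak (3771 peaks) were merged with the depilation and imiquimod peaks wherever they overlapped or touched. Of the merged regions, 680 held E16.5 and depilation peaks and no imiquimod peak. From these, 5 on chromosome X and 10 on chromosome Y were set aside, which left 665 on autosomes. None of the 665 was wider than the limit of 5 kb, and the only 2 regions beyond it, of 5091 and 6346 bp, lay on chromosome Y. The widest member spanned 1803 bp, at chr1:91476560-91478362. A depilation score above the highest score of the imiquimod list put 11 regions apart. The member just inside this limit scored 230.88 and the region just outside it scored 253.36. Presence or absence of a peak and the depilation score limit are therefore the selection itself and not results.

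The groups behind the lists are 2 replicates of whole skin from E16.5 mouse embryos, 1 library of adult mouse epidermis at day 4 of depilation, and 1 library of adult mouse epidermis from the imiquimod experiment. Depilation, the removal of hair, is a physical injury, and imiquimod is a Toll-like receptor agonist that causes a psoriasis-like inflammation. All 4 libraries were precipitated with a custom Grhl3 antibody, and the adult epidermis was separated from dermis with dispase. The labels give no strain, genotype or sex, and do not say whether animals were pooled. Because embryonic samples are whole skin and adult samples are epidermis, age and tissue cannot be told apart between them. With 1 library for each adult condition, nothing below tests depilation against imiquimod: the intervals printed are exact 95% Clopper-Pearson intervals for shares and order-statistic intervals for medians, they treat regions as independent, and they cover counting error only.

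Read depth is unknown for every list, and the lists differ in length, from 4820 peaks after depilation and 7974 after imiquimod to 9685 in E16.5 replicate 2 and 11619 in replicate 1. The score is the authors' value for each peak, it starts at about 50 in each list, and no label or header says what it measures. It is given below as such and as a percentile, the rank of the score as a percentage of the list's length, with ties at their mean rank. A region without an imiquimod peak is one where the authors' imiquimod list holds none, which does not show that Grhl3 was absent. The highest imiquimod score is below the highest of the other lists, 1588.84 in E16.5 replicate 1 and 3100 in replicate 2 and depilation. Among imiquimod peaks nearest to named regions, the false discovery rate was 9.75% at a score of 52.69, 2.98% at 112.12 and 5.75% at 186.18. Whether higher-scoring peaks were left out of the imiquimod list was not tested. No sequence is printed and no gene is named for these regions, because positions are on mouse build mm9 and no genome or annotation of that build was used here.

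Among the autosomal regions shared by E16.5 and depilation, nearly as many lacked an imiquimod peak as had one. They were 665 of 1413, or 47.1% (95% interval 44.4 to 49.7), the regions left apart included, and the other 748 held peaks of all 3 conditions. Among E16.5 regions that had no depilation peak, 1673 of 2282 lacked an imiquimod peak, or 73.3% (71.4 to 75.1). Seen against all 3695 autosomal E16.5 regions, those with a depilation peak and no imiquimod peak made up 18% (16.8 to 19.3). Of all 12893 autosomal regions no wider than 5 kb, the 654 members made up 5.07%. These shares follow from the rule and describe its yield.

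The 10 members with the highest mean percentile over both E16.5 replicates and depilation lay on 9 different chromosomes. The first was at chr13:120276687-120278112, with scores of 368.72 in E16.5 replicate 1, 245.59 in replicate 2 and 131.83 after depilation. It lay within the best scoring 5% of peaks in each of the 3 lists, and the nearest imiquimod peak was 58.8 kb away. The second, at chr15:79634187-79635456, scored 256.94, 187.83 and 158.95 in the same order. The third, at chr12:113368438-113369501, scored 288.81, 137.17 and 182.08, and an imiquimod peak of 34 tags lay 12.7 kb from it. The order of the lists by score was not the same in all of them, although scores of different lists are not on a known common scale. At chr5:88993683-88995007 the depilation score of 230.88 was above the E16.5 scores of 197.94 and 145.38, whereas at chr4:150431419-150432374 the depilation score of 105.41 was below the E16.5 scores of 245.23 and 166.55. A further member on chromosome 15, at 78858560 to 78859234, scored higher in E16.5 replicate 2 (194.41) than in replicate 1 (166.07), and 133.91 after depilation. The remaining 4 were at chr7:73254258-73255193, chr14:35123279-35124597, chr6:145197981-145199323 and chr11:61667838-61668944. Their depilation scores were 129.93, 133.31, 212.1 and 135.75. In each of the 10, peaks of E16.5 replicate 1, replicate 2 and depilation had at least 1 base in common.

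The member with the lowest mean percentile, at chr4:100741393-100741907, scored 53.58 and 50.13 in the E16.5 replicates and 59.43 after depilation. The next, at chr17:26644827-26645479, scored 61.33, 55.31 and 50.52, and the third lowest, at chr10:43260499-43261034, scored 52.73, 63.52 and 50.8. Their percentiles ranged from 12.3 to 38.0 in replicate 1, from 0.392 to 48.9 in replicate 2 and from 2.45 to 45.3 after depilation. Of the 654 members, 18 (2.75%) were in the lower 50% of all 3 lists and 16 (2.45%) in the best 10% of all 3. For the 748 regions of all 3 conditions these shares were 0.668% and 4.95%.

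Over the 654 members the scores covered a broad range in each list. In E16.5 replicate 1 they ran from 50.52 to 429.72, with a median of 104.26 (interval 99.4 to 110.59). In replicate 2 they ran from 50.13 to 267.94, with a median of 76.75 (75.45 to 81.01). After depilation they ran from 50.03 to 230.88, with a median of 68.34 (66.52 to 69.95). A depilation score of 100 or less was found in 576 members, or 88.1% (85.3 to 90.5). This was close to the 89.3% of the whole depilation list, whose median score was 60.4. In regions of all 3 conditions the share was lower, 73.4% (70.1 to 76.5). Scores above 200 were found in 5 members. Embryonic and depilation scores were weakly related. The rank correlation of the depilation score with the replicate 1 score was 0.16 over the 654 members, with the replicate 2 score it was 0.14, and between the E16.5 replicates it was 0.24. All members share the same 3 libraries, so these are descriptions without a test.

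**Figure D1:**
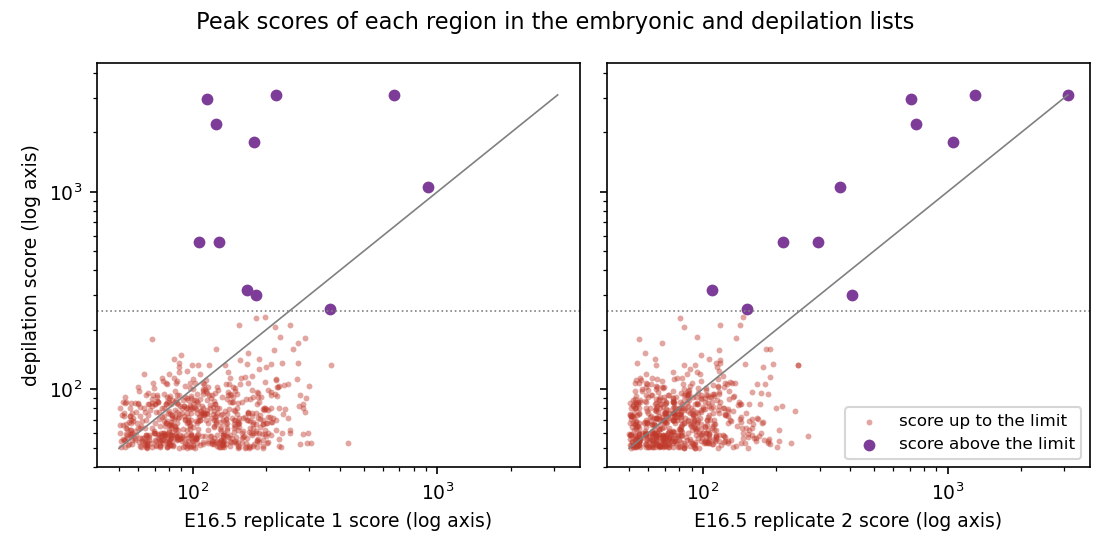
Depilation score (vertical, log axis) against the E16.5 replicate 1 score (left) and replicate 2 score (right, both log axes) for the 654 members and the 11 regions above the score limit, which is the dotted line. The solid line marks equal scores. Members form a broad cloud with a weak relation. By score, 10 of the 11 regions above the limit lie above the line on the left and 9 on the right, and by percentile depilation ranks higher in 9 and 6 of them, scores of different lists not being on a known common scale.

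Some members departed from the usual balance of scores. Both E16.5 replicates were in the best 10% of their lists while depilation was in the lower 50% of its list in 12 members, or 1.83% (0.952 to 3.18), against 23 of the 748 regions in all 3 conditions, or 3.07% (1.96 to 4.58). The examples named next were chosen after their values were seen. The one with the highest mean percentile was at chr1:91476560-91478362, with scores of 232.73 and 173.11 in the embryo and 59.47 after depilation. Another, at chr6:99641904-99643652, had the highest replicate 1 score of any member, 429.72, with 228.29 in replicate 2 and 53.1 after depilation. The opposite pattern, a depilation score in the best 10% with both E16.5 scores in the lower 50%, occurred in 3 members, or 0.459% (0.0947 to 1.33), and in 2 of the 748 regions in all 3 conditions, or 0.267% (0.0324 to 0.962). Of these, chr7:133225168-133226086 scored 179.24 after depilation against 68.43 and 54.68 in the embryo. At chr12:104626775-104627295 the scores were 119.52, 63.43 and 58.68, and at chr17:24625268-24626252 they were 102.24, 59.95 and 58.54. In percentile, depilation ranked above E16.5 replicate 1 in 224 members (34.3%, 30.6 to 38.0) and above replicate 2 in 288 (44.0%, 40.2 to 47.9). In regions of all 3 conditions these shares were 34.0% (30.6 to 37.5) and 50.8% (47.2 to 54.4).

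In the embryonic lists the members ranked between the regions of all 3 conditions and the regions of E16.5 alone. Their median percentile in E16.5 replicate 1 was 75.85 (73.58 to 78.5), against 87.47 (85.85 to 88.75) for regions in all 3 conditions and 65.76 (63.79 to 67.05) for E16.5 alone. In replicate 2 it was 69.46 (67.43 to 72.83), against 77.19 (74.58 to 80.18) and 63.12 (61.12 to 64.99). The regions shared by E16.5 and imiquimod without a depilation peak were closer to the members. Their medians were 80.64 (78.58 to 82.92) in replicate 1 and 72.69 (70.14 to 75.6) in replicate 2, and the members' medians differed from these by -4.8 and -3.23 points. The intervals of the members and of these regions overlapped in replicate 2 and were adjacent without overlap in replicate 1. In the depilation list, which chose the members, their median percentile was 65.05. It was 76.97 for regions in all 3 conditions and 37.98 for the 2690 regions of depilation alone. Depilation alone means without an imiquimod peak and without an E16.5 replicate 1 peak overlapped by replicate 2. Of these 2690 regions, 464 met a peak of replicate 1 and 123 a peak of replicate 2.

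**Figure D2:**
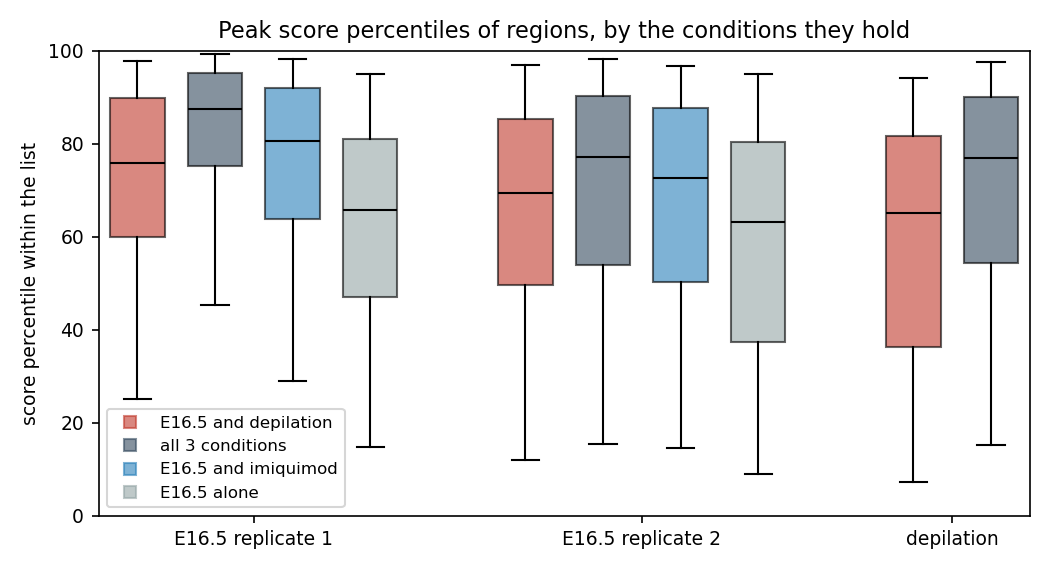
Score percentile within each list (vertical) for regions of E16.5 and depilation (654), all 3 conditions (748), E16.5 and imiquimod (609) and E16.5 alone (1673). Boxes show the quartiles, lines the medians and whiskers the 5th and 95th percentiles over regions, and the members lie below the regions of all 3 conditions and above those of E16.5 alone in both E16.5 replicates.

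The share of E16.5 and depilation regions lacking an imiquimod peak was lower at higher scores. Ranked by depilation score and split into 5 equal bins, 173 of 282 regions in the lowest bin lacked one, or 61.3% (55.4 to 67.1). In the middle bin it was 48.6% (42.6 to 54.6), and in the highest bin 87 of 283, or 30.7% (25.4 to 36.5). Ranked by the score of E16.5 replicate 1, the share went from 64.5% (58.6 to 70.1) to 31.8% (26.4 to 37.6). Ranked by replicate 2 the slope was shallower, from 50.7% (44.7 to 56.7) to 37.8% (32.1 to 43.7), and the second bin, at 53.0%, was above the first. The 11 regions above the score limit are in these counts, and all 11 sit in the highest bin by depilation score.

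**Figure D3:**
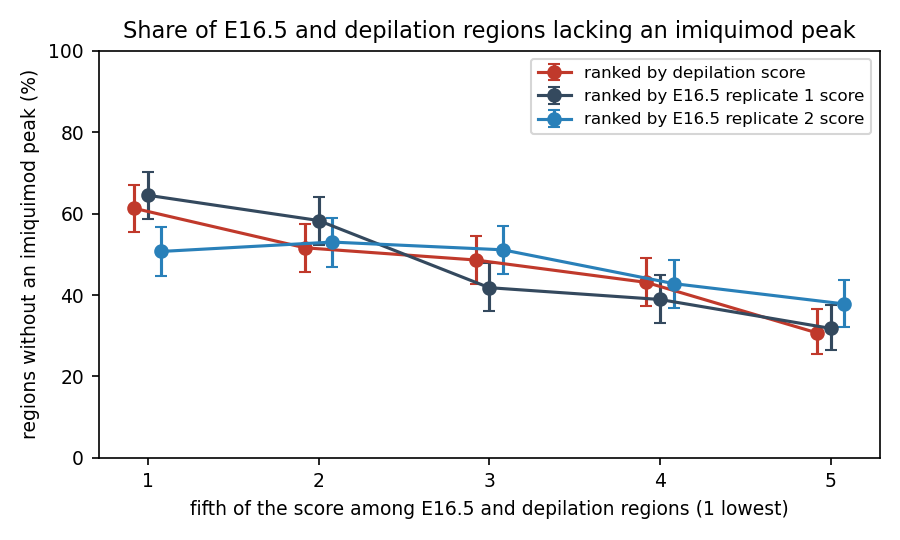
Share of E16.5 and depilation regions without an imiquimod peak (vertical, percent) in 5 equal bins of the score (horizontal, 1 lowest), ranked by depilation, E16.5 replicate 1 or E16.5 replicate 2. Bars are exact 95% intervals for 282 or 283 regions a bin, and the share falls from 61.3% to 30.7% by depilation score.

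At like depilation scores, the regions lacking an imiquimod peak still had lower E16.5 percentiles than regions of all 3 conditions, except in the highest bin. In the lowest bin of depilation score their median percentile in E16.5 replicate 1 was 73.46 (68.02 to 76.97) against 84.65 (80.36 to 89.97). In the second it was 71.61 against 87.06, in the third 78.54 against 86.18, and in the fourth 74.44 against 86.63, and the intervals were apart in the first, the second and the fourth bin and overlapped narrowly in the third. In the highest bin the medians were 88.75 (80.59 to 92.69) and 89.96 (86.86 to 92.8), and the intervals overlapped widely. In replicate 2 the differences in the same order were -12.11, -6.62, -4.59, -4.62 and 1.84 points, and the intervals overlapped in all 5 bins. The 87 regions without an imiquimod peak in the highest bin include the 11 above the score limit, which are not members. The median percentiles of these 11 were 94.06 in replicate 1 and 99.87 in replicate 2. The highest bin was not computed without them.

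By the rule, a depilation peak overlaps or touches a replicate 1 peak in every member. Depilation peaks were also narrower, with a median of 251.0 bp against 673.0 bp. The values that follow describe where the depilation peak sat, and no expected position was computed. In nearly every member it lay on the body of the embryonic peak. A depilation peak lay wholly inside the replicate 1 peak in 619 of 654 members, or 94.6% (92.6 to 96.2), and in 720 of the 748 regions of all 3 conditions, or 96.3% (94.6 to 97.5). In 623 members, or 95.3% (93.3 to 96.8), peaks of both replicates and of depilation shared a base, although the rule required only overlap along a chain. In the other 31 no depilation peak overlapped a replicate 2 peak. The median distance between the centres of the depilation and replicate 1 peaks was 77.0 bp (69.0 to 88.0), and 569 members (87.0%) had the centres within 200 bp. From the depilation centre to the replicate 2 centre the median was 67.8 bp (61.5 to 75), and between the 2 replicates it was 61.5 bp (54.5 to 66.0). In regions of all 3 conditions the centres of depilation and replicate 1 were 100.5 bp apart (92.0 to 110.5). Replicate 1 peaks there were also wider, at a median of 864.0 bp (839.0 to 890.0), than in members, at 673.0 bp (655.0 to 698.0). As a percentage of the distance from the centre to the edge of the replicate 1 peak, the offset was 23.5% (21.7 to 25.9) in members and 24.3% (22.3 to 27.3) in regions of all 3 conditions.

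**Figure D4:**
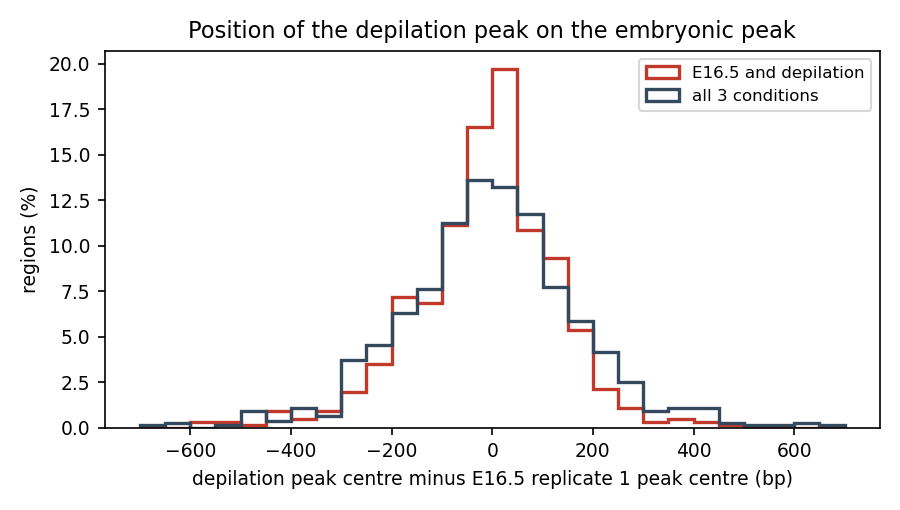
Position of the depilation peak centre relative to the centre of the E16.5 replicate 1 peak (horizontal, bp) as a percentage of regions (vertical, bins of 50 bp) for the 654 members and the 748 regions of all 3 conditions. Both distributions centre on 0, and 87.0% of members lie within 200 bp of it.

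Members were mostly single peaks in each list. Of the 654, 653 held 1 peak of E16.5 replicate 1, 619 held 1 of replicate 2 and 611 held 1 of depilation. A pair of depilation peaks was found in 41 members and 3 depilation peaks in 2. A single depilation peak was held by 93.4% of members and by 83.6% of the regions of all 3 conditions. For replicate 1 these shares were 99.8% and 99.6%, and for replicate 2 94.6% and 89.0%. Regions of all 3 conditions are also merged with an imiquimod peak, and their median width was 875.5 bp against 674.5 bp in members. The part of width in these shares was not tested. Depilation peaks in members had a median width of 251.0 bp (242.0 to 258.0), against 283.5 bp (276.0 to 294.0) in regions of all 3 conditions and 204.5 bp over the whole depilation list.

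Most members were far from any imiquimod peak. The median distance to the nearest one was 94.8 kb (87.1 to 106.4), close to the 97.4 kb (90.6 to 102.7) of E16.5 regions without either adult peak and the 98.9 kb (92.6 to 105.2) of depilation regions without an E16.5 region. An imiquimod peak lay within 10 kb of 45 members, or 6.88% (5.06 to 9.1), against 7.83% (6.59 to 9.22) of E16.5-alone and 9.78% (8.68 to 11.0) of depilation-alone regions. Within 500 bp there was one for 10 members, or 1.53% (0.736 to 2.79), against 2.33% of E16.5-alone and 2.86% of depilation-alone regions. For those members the absence of an imiquimod peak rests on a short gap. The nearest case was chr13:110692971-110693727, 54 bp from an imiquimod peak with 28 tags and an enrichment of 6.01-fold. Here the peaks of E16.5 replicate 1, replicate 2 and depilation had no base common to all of them. At chr7:31741817-31742254 the gap was 121 bp, and the imiquimod peak had 52 tags at 7.69-fold. The gaps were 136 bp at chr13:56235999-56236440, 163 bp at chr16:22162582-22163009 and 170 bp at chr10:80297245-80298442. The 18 imiquimod peaks within 1 kb of a member had a median score of 81.75 and a median enrichment of 6.98-fold, against 69.6 and 6.65-fold over the whole imiquimod list.

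**Figure D5:**
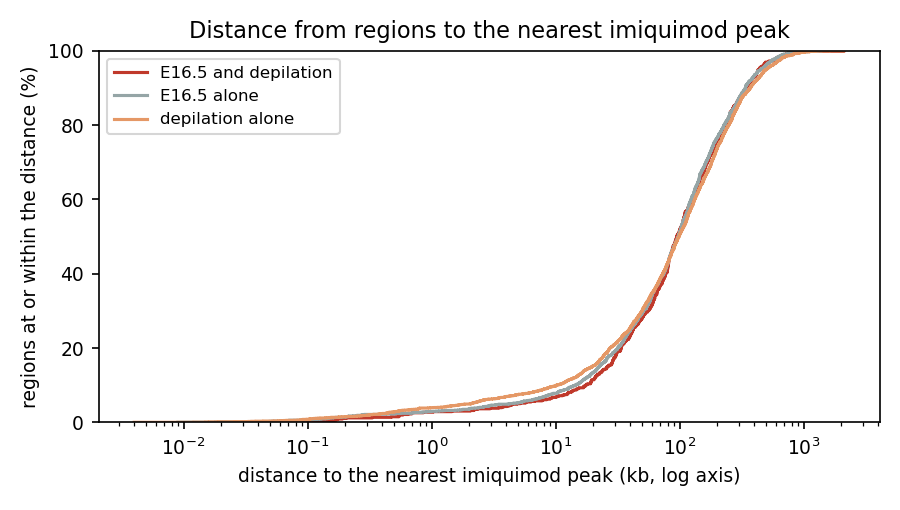
Cumulative percentage of regions (vertical) by distance to the nearest imiquimod peak (horizontal, kb, log axis) for members, E16.5-alone regions and depilation-alone regions. The curves nearly coincide, with medians of 94.8, 97.4 and 98.9 kb.

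The members were spread over all 19 autosomes. Chromosome 2 held the most, 60, followed by chromosome 11 with 58 and chromosome 5 with 50, and chromosome 16 held the fewest, 18. The depilation list had 373, 309, 324 and 158 peaks on these chromosomes in the same order. The counts of members were not scaled to peak number or chromosome length. Among E16.5 and depilation regions, the share lacking an imiquimod peak ranged from 39.0% (26.5 to 52.6) on chromosome 3 to 62.5% (45.8 to 77.3) on chromosome 18, and the intervals of these chromosomes overlapped. A second member within 10 kb was found for 12 members, or 1.83% (0.952 to 3.18), and these formed 6 pairs. A member lay within 10 kb of 1.6% of regions in all 3 conditions and 1.67% of E16.5-alone regions. For depilation-alone regions it was 0.595%. The closest-packed pair spanned 1.1 kb on chromosome 17, at 50432088 to 50433226. Its members had depilation scores of 58.65 and 79.98. A region of all 3 conditions lay within 100 kb of 95 members, or 14.5% (11.9 to 17.5). The same held for 11.5% (9.99 to 13.1) of E16.5-alone regions and 5.84% (4.98 to 6.79) of depilation-alone regions. Of the regions of all 3 conditions, 11.9% (9.67 to 14.4) had another such region within 100 kb. The interval of the members overlapped those of E16.5-alone regions and of regions of all 3 conditions.

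The 11 regions with depilation scores above the imiquimod maximum lay on 7 chromosomes. The region at chr17:39979845-39983768 scored 3100 after depilation and in E16.5 replicate 2 and 665.75 in replicate 1, and 3100 is the highest value in these lists. A second region beside it, at chr17:39984349-39985835, scored 1782.3 after depilation, 1051.65 in replicate 2 and 178.49 in replicate 1. On chromosome 2, the region at 98506351 to 98507533 scored 3100, 1293.41 and 218.57, and the one at 98502326 to 98503199 scored 2952.32, 709.86 and 114.12. At chr9:35112718-35113242 the scores were 2199.6, 739.78 and 125.09. These 5 regions followed one order, with depilation at least as high as replicate 2 and replicate 2 above replicate 1. The order did not hold at 4 others. The region at chr10:25999660-26000310 scored 1061.63 after depilation, 911.37 in replicate 1 and 363.37 in replicate 2. At chr9:15297713-15298589 the scores were 315.9, 167.08 and 109.34 in the same order, and at chr11:119774873-119775486 they were 253.36, 365.33 and 151.32. At chr11:108872759-108873384 depilation scored 298.83, below the 408.11 of replicate 2 and above the 181.24 of replicate 1. The order held at the other two, chr3:5860582-5860887 with 559.4 after depilation, 295.41 in replicate 2 and 128.37 in replicate 1, and chr5:147072472-147073048 with 558.15, 211.8 and 106.09.

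By percentile, depilation ranked above E16.5 replicate 1 in 9 of these 11 regions and above replicate 2 in 6 of 11. These regions were chosen by their depilation score, so the counts describe the choice. The rank correlation of depilation with replicate 2 over the 11 regions was 0.85, and with replicate 1 it was 0.05. The peaks also coincided closely, with a median of 17.0 bp between the depilation and replicate 1 centres. Regions above the score limit made up 12 of the 680 E16.5 and depilation regions on all chromosomes (1.76%, 0.915 to 3.06), 4 of the 750 in all 3 conditions (0.533%, 0.146 to 1.36), and 17 of the 2740 in depilation alone (0.62%, 0.362 to 0.992). The imiquimod library was not empty beside the chromosome 2 pair. Between these 2 regions, 566 bp from one and 2025 bp from the other, lay an imiquimod peak at 98503765 to 98504326 with 599 tags, the second highest tag number of the imiquimod list. Its enrichment was 2.06-fold, the lowest of that list, and its score 59.77. At this place, then, many imiquimod tags went with little enrichment over the caller's background. Input signal and repeats were not analysed here, and their part in these 11 regions was not tested. All 11 have depilation scores above any score in the imiquimod list. Whether imiquimod peaks with such scores were left out of that list was not tested either.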

How the data were processed

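Grhl3 ChIP-seq peak lists of 4 libraries were used, and the 2 input libraries were not analysed here. Per the submitters' processing notes, Bowtie 0.12.7 and bedtools 2.11.2 were among the tools and mm9 is the genome build. No source used here gives the caller's settings. The authors deposited a peak score per peak in each list. For the imiquimod list they also deposited a count of tags, a fold enrichment (ratio) and a false discovery rate in percent, per the file headers. Its score column carries a spreadsheet error in place of a header and was read as the same score. BED starts were raised by 1. Overlap, merging, percentiles, intervals and centre distances were computed with pandas 2.3.3, scipy 1.17.1 and numpy 2.4.6 in Python 3.11.15, and overlaps were checked on simulated lists and with bedtools. Where several peaks of a list met a region, the best score counted. No test was run over regions.

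The members, lists and alternatives were chosen with earlier results of these data known. Named regions are all 11 above the score limit, the 10 best and 3 lowest by mean percentile, the 5 nearest to an imiquimod peak, and those at the limits. Regions that illustrate unequal scores (on chromosomes 1, 6, 7, 12 and 17) and the closest pair were chosen after their values were seen. A planned search for the grainyhead motif and for nearby gene starts was not run, since the reference tables are on another build.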

Additional observations from a re-analysis of the deposited data

How the results depend on the processing

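Over 54 recomputed values, 41 stayed within their interval or, for the count, within 1.5 times, and 13 moved. Only the differences in median percentile could change sign, and none did. Some values could not move. No autosomal E16.5 and depilation region without an imiquimod peak was beyond the width limit, and the share lacking an imiquimod peak counts the regions left apart in any case. The number of members rose from 654 to 749 without E16.5 replicate 1, to 1074 without replicate 2 and to 1176 with peaks of either replicate, and fell to 344 with the better scoring 50% of each list. Of the 654, 621, 654, 650 and 285 were also members under these settings in the same order, and 59.9% of them were with each list reduced to the length of the shortest. The share of E16.5 and depilation regions without an imiquimod peak, 47.1%, was 50.5% without replicate 1, 49.7% without replicate 2 and 51.2% with either replicate. The median replicate 1 percentile was 73.0 without replicate 2 and 73.0 with either replicate. The share of members with a base common to all peaks was 100% without either one of the replicates, where 1 peak fewer has to meet, and 52.6% with peaks of either replicate, where many regions lack one of them. The median centre distance was 56.0 bp without replicate 1, measured to replicate 2, and 76.0 bp without replicate 2. An imiquimod peak within 10 kb was found for 9.35% without replicate 1, 8.1% without replicate 2 and 4.94% with the better scoring 50%. The lower percentiles of members than of regions in all 3 conditions kept their direction in each setting run. Adult conditions have 1 library each, which could not be left out. The planned motif and gene start alternatives were not run. Depth is unknown and limits every statement on absence of a peak. So does the untested question of whether high-scoring peaks were left out of the imiquimod list.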
